A study of Homo sapiens with 2 samples.

Results

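Aminoacyl-tRNA synthetases charge each tRNA with its amino acid and so supply the ribosome. Human cells have a cytosolic set and a mitochondrial set, mostly encoded by separate nuclear genes. GARS1 and KARS1 are exceptions and serve both compartments. Several cytosolic enzymes are held in a multisynthetase complex by scaffold proteins, among them AIMP1. Many cytosolic synthetase genes are known targets of ATF4, the transcription factor induced when amino acids run short or the endoplasmic reticulum is stressed.

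Genes were taken by symbol: a single letter followed by ARS, or EPRS, with or without a final 1 or 2, and the scaffold genes AIMP1, AIMP2 and EEF1E1. This gave 30 of the 14232 genes that had a probe set annotated with a single symbol. They comprised 17 cytosolic enzymes, 12 mitochondrial enzymes and 1 scaffold protein, and each was measured by 1 probe set. EARS2, SARS2, VARS2 and YARS2 were annotated only on probe sets shared with other genes and are described apart. AIMP2 and EEF1E1 were not analysed here.

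The samples were the side population (SP) and the non-side population (NSP) of J82, an established human bladder cancer cell line grown in medium with serum and with no treatment given. Cells were stained with the DNA dye Hoechst and sorted by flow cytometry, and SP cells are those that keep little of it. Total RNA was hybridised to human exon arrays, and each population has a single array. With 1 sample a population there is no replicate check, no test and no p-value, and every difference below compares these 2 arrays only.

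Values are log2 signals, and differences are the SP value minus the NSP value. Values ran from 2.15 to 13.99 in SP and from 2.11 to 13.93 in NSP, and 7549 genes had an SP or NSP value no lower than 7.44, the pooled median of the table. That median is called the floor. All 30 members reached it on both arrays, so none was left out. Levels of different probe sets depend on the probes and are not compared between genes. Of the measured cell markers, 6 of 14 urothelial and epithelial genes reached the floor, among them KRT8, KRT18, KRT19 and PPARG. The urothelial markers UPK1A, UPK1B, UPK2, UPK3A and GATA3 and the epithelial genes EPCAM and CDH1 did not on either array. Among the 6 that did, 5 were higher in SP and 1 lower, with a median of 0.20. PPARG had 9.20 in SP and 8.50 in NSP, a difference of 0.69 or 1.62-fold. KRT8 differed by 0.42. All 7 measured mesenchymal genes reached the floor, with differences from -0.36 (AXL) to 0.15 (FN1), and ZEB1 and TWIST1 between them at 0.15 and 0.09. Of 7 immune markers 3 reached it. These were CD68 (9.35 in SP and 9.66 in NSP), CD14 (7.73 in SP and 7.64 in NSP) and NKG7 (7.56 in SP and 7.31 in NSP), while the leukocyte gene PTPRC had 3.74 in SP and 3.80 in NSP. Of 6 endothelial markers CLDN5 alone reached it (8.06 in SP and 8.17 in NSP), and of 3 erythroid and platelet markers 0 did.

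A sequence shared by several promoters bears on the comparison with ATF4 below. The composite element bound by ATF4 with C/EBP partners has the core TGATGNAA, and it was searched on both strands in RefSeq promoter windows of GRCh38.p14 that run from 250 bases before to 50 after each gene's start. Windows were matched for 26 of the 30 members. LARS1, YARS1, VARS1 and AARS2 had none. The core was present in 6 of 14 cytosolic enzyme promoters (42.9%), in 0 of 11 mitochondrial ones and in 101 of 6281 promoters of genes at or above the floor (1.61%). In these 6 promoters the free base was always C, giving TGATGCAA or, on the other strand, TTGCATCA, which 33 of the 6281 promoters (0.525%) held. The 6 sites are shown because they are the same core in genes whose difference between the populations was at most 0.21 in size. Each line gives 30 bases of the gene's own strand, 5′ to 3′, with the core in capitals.
AARS1 (chr16:70289675-70289704, minus strand): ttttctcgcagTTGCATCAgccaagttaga
CARS1 (chr11:3057407-3057436, minus strand): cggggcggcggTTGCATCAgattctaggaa
IARS1 (chr9:92293692-92293721, minus strand): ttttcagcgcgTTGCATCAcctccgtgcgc
MARS1 (chr12:57488053-57488082, plus strand): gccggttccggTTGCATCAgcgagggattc
NARS1 (chr18:57621804-57621833, minus strand): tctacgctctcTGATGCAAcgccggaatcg
TARS1 (chr5:33440956-33440985, plus strand): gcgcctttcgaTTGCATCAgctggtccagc

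In 5 of the 6 the core read TTGCATCA on the gene's strand, and only in NARS1 did it read TGATGCAA. It began 187 bases before the start in AARS1, 13 before it in IARS1, 4 before it in MARS1 and 2 before it in CARS1. In TARS1 it began 2 bases after the start base and in NARS1 14 after it. A match is a description of letters and not evidence that a factor was bound in these cells, and a promoter without a match may hold an element outside the window.

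The cytosolic synthetases had nearly the same signal in SP and NSP. None of the 17 differed by 1.5-fold, where 4.53% of genes at or above the floor did. None differed by 0.32 or more on the log2 scale, a second and lower threshold that 19.3% of those genes passed. Their differences lay between -0.21 and 0.20 with a median of -0.05, which is also the median of the 7549 genes at or above the floor (-0.05). The SD across the 17 genes was 0.085, against 0.281 across the 7549 and 0.285 across the 2950 genes with mean signals in the same range as the cytosolic enzymes. Within 0.1 of 0 lay 14 of the 17, against 33.3% of genes at or above the floor. The limit of 0.1 was chosen after the values were seen. In bulk RNA of sorted cells, fewer cells that express a gene and less RNA per cell cannot be told apart. The count of 13 of 17 lower in SP is read beside the 59.6% of the 7549 genes that were lower in SP, and it turned to 3 of 17 when the trend of the difference on signal level was removed.

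The arginine enzyme gene RARS1 and the methionine enzyme gene MARS1 stood furthest from the other cytosolic members. RARS1 had 9.36 in SP and 9.15 in NSP, a difference of 0.20 or 1.15-fold. MARS1 had 10.46 in SP and 10.67 in NSP, a difference of -0.21 or 1.16-fold. Both encode enzymes of the multisynthetase complex. These are small shifts on the scale of the arrays: 39.3% of genes at or above the floor had a larger difference in size than RARS1 and 37.1% a larger one than MARS1.

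The other enzymes of the complex lay between those limits. LARS1, which charges leucine tRNA and also senses leucine for mTORC1, had 9.77 in SP and 9.71 in NSP. EPRS1, a fused enzyme that charges tRNAs for glutamate and for proline, had 9.79 in SP and 9.78 in NSP. QARS1, the glutamine enzyme, had 11.14 in SP and 11.19 in NSP. IARS1, the isoleucine enzyme, had a difference of -0.08 between 10.86 in SP and 10.94 in NSP, and KARS1, the lysine enzyme, one of -0.08 between 9.91 in SP and 9.99 in NSP. The scaffold gene AIMP1, whose product also has an extracellular cytokine form, was 1.13-fold lower in SP (9.20 in SP and 9.39 in NSP). Over the 8 measured members of the complex, AIMP1 included, 3 were higher and 5 lower in SP, with a median of -0.06. With the trend removed, 6 of the 8 were higher and 2 lower (MARS1 and AIMP1). Lower in SP were 59.6% of genes at or above the floor as deposited and 49.1% with the trend removed.

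The 10 cytosolic enzymes outside the complex were the tightest group, with an SD of 0.035 across genes and differences from -0.11 to 0.01. WARS1, the tryptophan enzyme known for its induction by interferon gamma, had 11.64 in SP and 11.70 in NSP. The glycine enzyme gene GARS1 and the tyrosine enzyme gene YARS1, both known for mutations that cause Charcot-Marie-Tooth neuropathy, had differences of -0.02 and -0.02. SARS1, the serine enzyme, differed by -0.05 (10.67 in SP and 10.72 in NSP). HARS1, the histidine enzyme and target of the Jo-1 autoantibody, also differed by -0.05 (9.82 in SP and 9.87 in NSP).

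The remaining enzymes of that group were similar. AARS1, the alanine enzyme, had 11.16 in SP and 11.25 in NSP. NARS1, the asparagine enzyme, had 11.18 in SP and 11.29 in NSP, and its difference of -0.11 was the only one of the 10 beyond 0.1 in size. TARS1, the threonine enzyme, was the only one of the 10 with a higher value in SP (10.21 in SP and 10.19 in NSP). VARS1, the valine enzyme, and CARS1, the cysteine enzyme, each differed by -0.06, with 9.26 and 8.84 in SP and 9.32 and 8.90 in NSP. With the trend removed 8 of these 10 were higher and 2 lower, so their sign depends on the scaling and their small size does not. Divided by structural class, the 9 class I enzymes, whose catalytic domain has a Rossmann fold, and the 7 class II enzymes each had a median of -0.05. EPRS1, which joins both classes, was counted in neither.

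**Figure D1:**
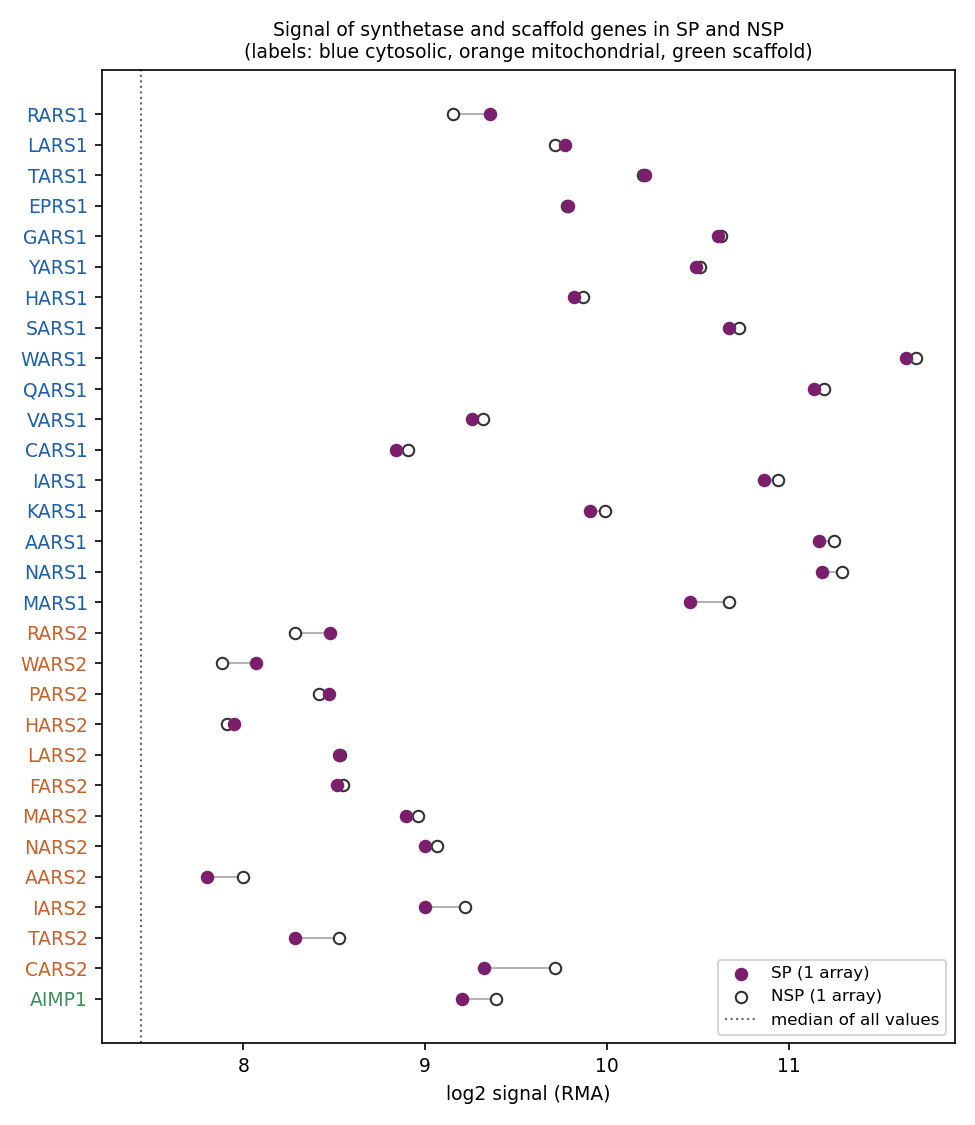
Log2 signal (x axis) of each of the 30 genes (rows) in SP (filled points) and NSP (open points), 1 array each, with gene names coloured by compartment and the floor as a dotted line. The 2 points of most cytosolic genes nearly coincide, and the widest gap is that of CARS2.

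The mitochondrial synthetases varied more among themselves, around the same median. Their differences ran from -0.39 to 0.19 with a median of -0.05 and an SD of 0.175 across 12 genes, still below the 0.275 across the 4138 genes with mean signals in the same range. None reached 1.5-fold in either direction, and 1 of the 12 was lower in SP by 0.32 or more, as were 10.7% of genes at or above the floor. That gene was CARS2, the mitochondrial cysteine enzyme that is also known to make persulfides. It had 9.32 in SP and 9.71 in NSP, a difference of -0.39 or 1.31-fold, and 12.5% of genes at or above the floor differed by more.

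A further 3 mitochondrial enzymes were lower in SP by 1.15-fold to 1.18-fold. TARS2, the threonine enzyme, had 8.29 in SP and 8.52 in NSP. IARS2, the isoleucine enzyme, had a difference of -0.22, and AARS2, the alanine enzyme, one of -0.20. The middle 50% of genes at or above the floor ran from -0.20 to 0.10, so TARS2 and IARS2 lay below it and AARS2 at its edge. The 3 were lower in SP with the trend removed as well.

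In the other direction, RARS2 and WARS2 were each 1.14-fold higher in SP. RARS2, the arginine enzyme mutated in a form of pontocerebellar hypoplasia, had 8.48 in SP and 8.29 in NSP. WARS2, the tryptophan enzyme, had 8.07 in SP and 7.88 in NSP. PARS2, the proline enzyme, and HARS2, the histidine enzyme, had differences of 0.06 and 0.04. LARS2, the leucine enzyme, had 8.53 in SP and 8.53 in NSP. FARS2, the phenylalanine enzyme, had a difference of -0.03, MARS2, the methionine enzyme, one of -0.06, and NARS2, the asparagine enzyme, one of -0.07. In all 4 of the 12 were higher and 8 lower in SP, which became 8 higher and 4 lower with the trend removed and 6 each under quantile normalisation.

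**Figure D2:**
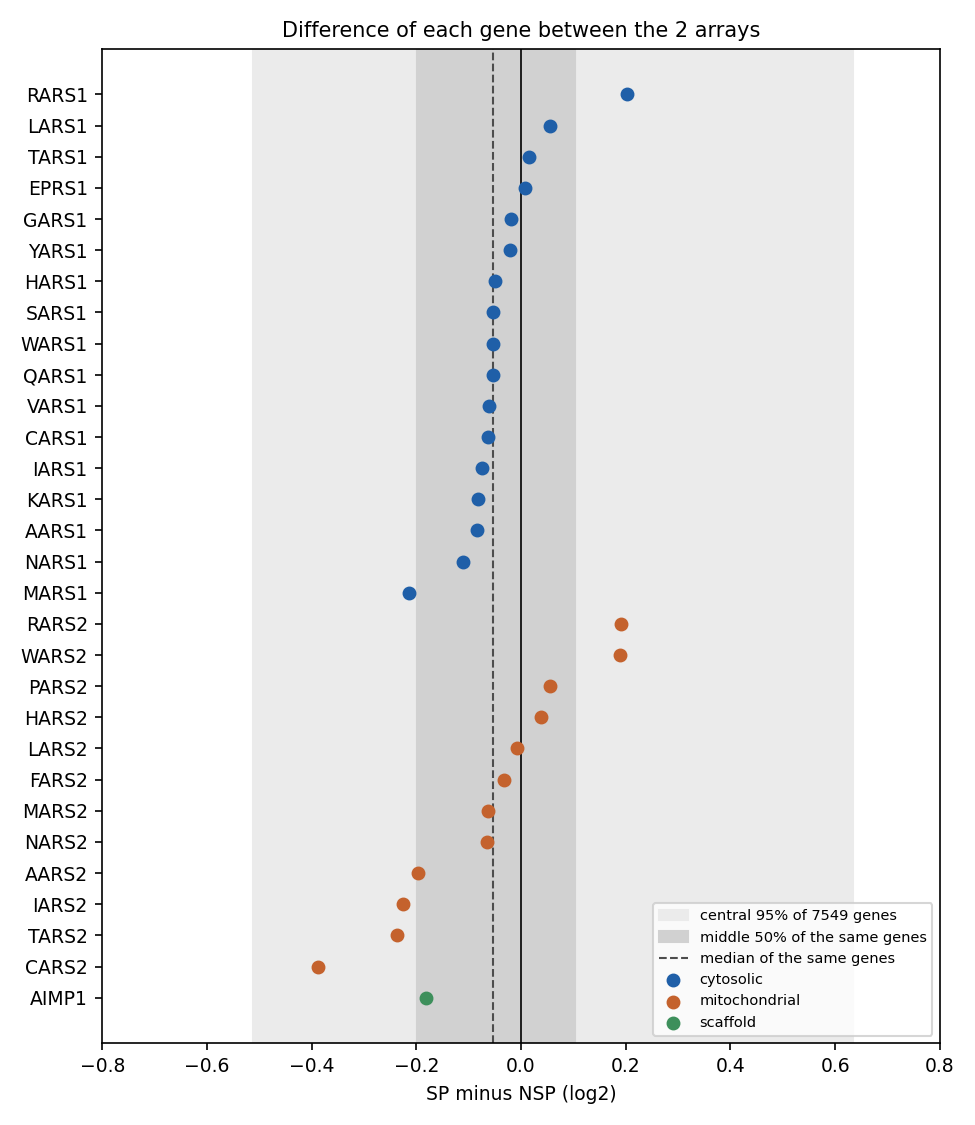
SP minus NSP (x axis, log2) of each gene, over bands that hold the central 95% and the middle 50% of the 7549 genes at or above the floor and a dashed line at their median. Cytosolic genes (blue) cluster at the dashed line apart from RARS1 and MARS1, and CARS2 is the mitochondrial gene (orange) furthest to the left, at -0.39.

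Enzymes for the same amino acid in the 2 compartments could be compared for 11 amino acids. The cytosolic difference lay above the mitochondrial one for 6 and below it for 5, and the median gap was 0.01. The widest gap was for cysteine, where CARS1 differed by -0.06 and CARS2 by -0.39. For threonine TARS1 differed by 0.01 and TARS2 by -0.24. For tryptophan the order was turned, with WARS1 at -0.05 and WARS2 at 0.19. Arginine was the amino acid whose enzymes were both higher in SP by over 0.1, with RARS1 at 0.20 and RARS2 at 0.19. The enzyme pairs share a substrate amino acid but are separate genes, and each difference rests on a single probe set.

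**Figure D3:**
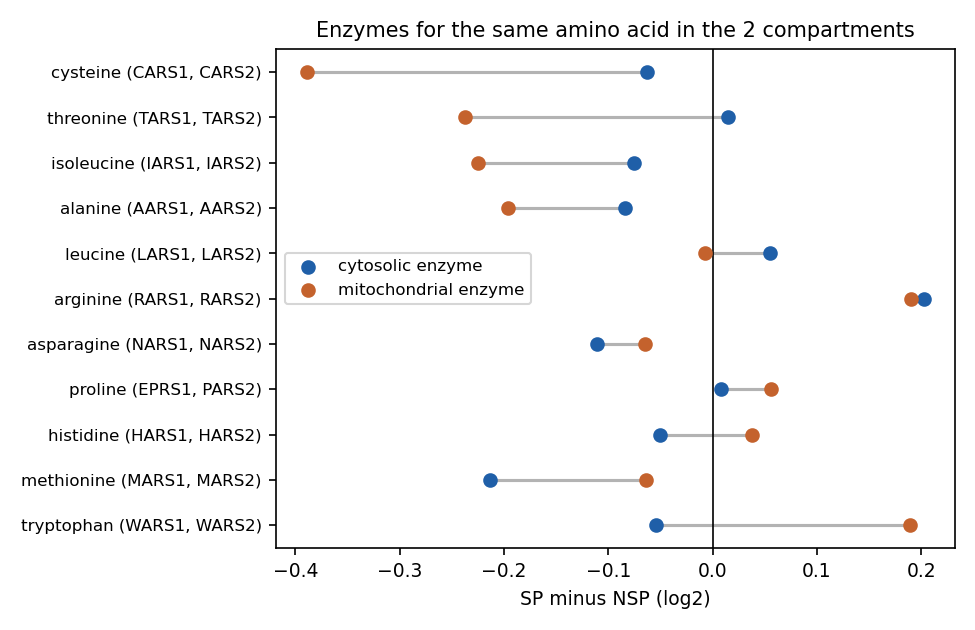
SP minus NSP (x axis, log2) of the cytosolic (blue) and mitochondrial (orange) enzyme for each of 11 amino acids, ordered by the gap between them. The gap is widest for cysteine, and both arginine enzymes lie at about 0.2.

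Several synthetase genes start close to an oppositely oriented neighbour, a divergent arrangement in which a shared promoter region lies between them. HARS1 and HARS2 start 85 bases apart on chromosome 5 and differed by -0.05 and 0.04. KARS1 and TERF2IP, a telomere protein gene that starts 108 bases away, differed by -0.08 and -0.15. WARS1 and WDR25 differed by -0.05 and -0.06. FARS2 and LYRM4, which start 57 bases apart, differed by -0.03 and 0.75, but LYRM4 lay under the floor on both arrays. RARS2 and ORC3, an origin recognition complex gene that starts 148 bases away, differed in opposite directions, with RARS2 at 0.19 and ORC3 at -0.21.

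Probe sets annotated with a synthetase and another gene cannot be assigned to either. SARS2, the mitochondrial serine enzyme, was annotated on 3 such probe sets. A probe set shared with its divergent neighbour MRPS12, a mitochondrial ribosomal protein gene, had 8.78 in SP and 9.14 in NSP, and another shared with MRPS12 had 8.35 in SP and 8.64 in NSP. The probe set shared with FBXO17 had 7.84 in SP and 8.20 in NSP. All 3 were lower in SP, by 1.22-fold to 1.29-fold. The probe set of VARS2 and GTF2H4 differed by -0.20. Those of EARS2 and UBFD1 differed by -0.20 and 0.01, and that of YARS2 and NAP1L1 by 0.04. With all such probe sets added to the genes they name, 11 of 16 mitochondrial and 13 of 17 cytosolic enzymes were lower in SP, each with a median of -0.06. Of genes that also have their own probe set, YARS1 was annotated with S100PBP on a probe set that differed by -0.24, HARS1 with DND1 and WDR55 on one that differed by -0.15, and AARS2 with TMEM151B and SPATS1 on one that differed by -0.04. Their inclusion would put YARS1 at -0.13 in place of -0.02.

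The cytosolic phenylalanine enzyme consists of the subunits FARSA and FARSB, which fall outside the naming rule. FARSA had 10.55 in SP and 10.83 in NSP, a difference of -0.28 that exceeded in size that of any of the 17 cytosolic enzymes. FARSB was annotated only together with TRIM61, on a probe set with a difference of 0.17. Among the other relatives above the floor, AARSD1, which edits mischarged alanine tRNA, differed by -0.35 and DTD1, which removes D-amino acids from tRNA, by -0.15. QRSL1 and GATC, subunits of the amidotransferase that makes mitochondrial glutamine tRNA, differed by -0.33 and -0.17, and MTFMT, which formylates the mitochondrial initiator tRNA, by -0.14. FARSA, AARSD1, DTD1, QRSL1, GATC and MTFMT were lower in SP as deposited, with the trend removed, with quantile normalisation and with centring. So were 59.6%, 49.1%, 54.2% and 57.8% of the 7549 genes at or above the floor under the same settings in turn.

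ATF4 and other amino acid response genes were set beside the synthetases. ATF4 had 10.13 in SP and 9.34 in NSP, 1.73-fold higher in SP. This is an RNA value, and the arrays did not measure ATF4 protein or its activity. The list held 27 amino acid response genes that reached the floor. The 1.5-fold limit was passed by 5 of them upwards in SP and by 0 downwards, where 3.1% and 1.43% of genes passed it. The 5 were ATF3 (2.08-fold), the amino acid transporter gene SLC38A2 (1.74-fold), ATF4, DDIT3 (1.70-fold), which encodes the stress factor CHOP, and CTH (1.59-fold), which makes cysteine from cystathionine. The list was chosen with earlier results of these data known, so its count is a description and no test. CTH was named after its value was seen. The same 5-to-0 count was obtained with the trend removed, with quantile normalisation and with centring.

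Over the 27 genes 18 were lower in SP and 9 higher, with a median of -0.09. With the trend removed 14 were lower and 13 higher. The shares lower among the 7549 genes were 59.6% as deposited and 49.1% with the trend removed. ASNS, the asparagine synthetase gene and a standard readout of this response, had 9.59 in SP and 9.74 in NSP. Its promoter held the core TGATGAAA, starting 68 bases before the start. PHGDH and PSAT1 of serine synthesis, the mitochondrial folate gene MTHFD2 and the tRNA exporter gene XPOT, all named after their values were seen, differed by -0.16, -0.26, -0.06 and -0.09. Of the 24 list genes with a promoter window 5 held the core. The 6 cytosolic synthetases with the core had differences from -0.21 to 0.01 with a median of -0.08, and the 8 without it had a median of -0.05. Over the 101 genes that held it the median was -0.07, with 5 past 1.5-fold upwards and 2 past it downwards in SP (4.95% and 1.98%, near the 3.1% and 1.43% of the 7549 genes).

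**Figure D4:**
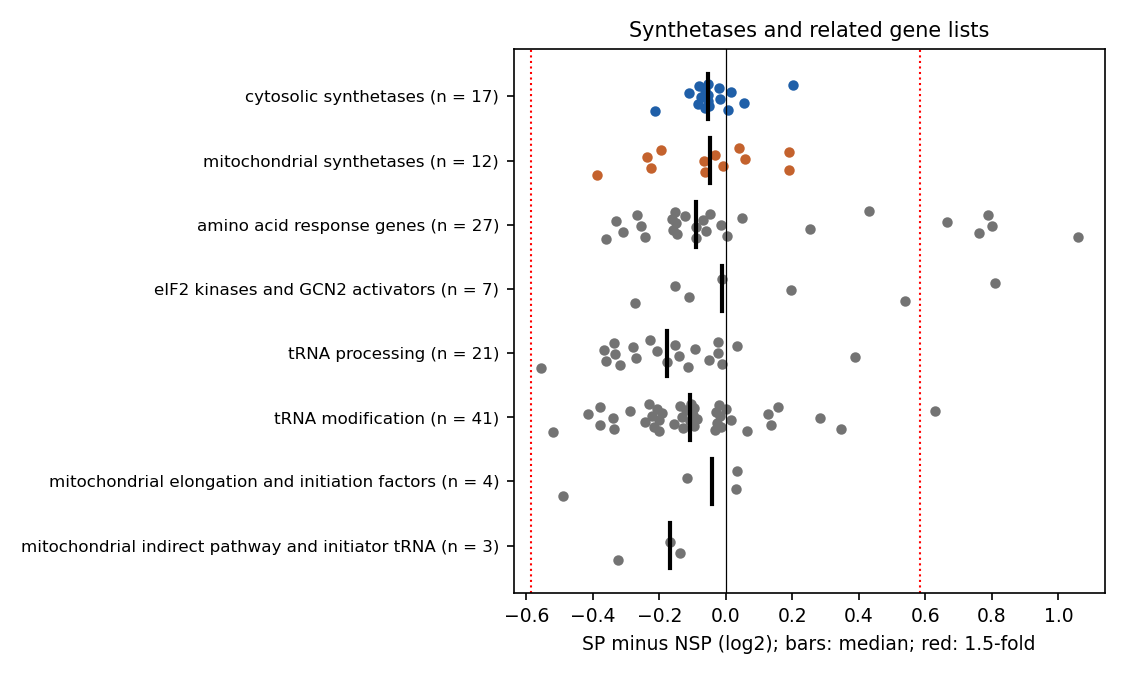
SP minus NSP (x axis, log2) of genes at or above the floor in the cytosolic and mitochondrial synthetase groups and in related lists (rows), with a bar at each median and red lines at 1.5-fold. The 17 cytosolic genes lie between -0.21 and 0.20, and 5 amino acid response genes lie beyond the right line.

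Upstream of ATF4, the kinase gene EIF2AK3 (PERK) was 1.75-fold higher in SP (8.92 in SP and 8.11 in NSP), and PPP1R15B, which encodes a regulator of eIF2 dephosphorylation, was 1.45-fold higher. EIF2AK2, the kinase activated by double-stranded RNA, differed by -0.27 and PPP1R15A by 0.20. Of the 7 measured genes in that list EIF2AK3 was the only one past 1.5-fold upwards, where 3.1% of genes at or above the floor were. With the trend removed it was 2 of the 7, where 3.87% of those genes were.

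Genes that mature tRNA were mostly lower in SP by small margins, as were 59.6% of the 7549 genes, or 49.1% of them with the trend removed. Of the 21 tRNA processing genes that reached the floor, 19 had a lower and 2 a higher SP value, against 15 lower and 6 higher with the trend removed, and the median was -0.18. The RNase P subunit genes POP5 and POP7 were 1.47-fold and 1.29-fold lower, HSD17B10, a subunit of mitochondrial RNase P, was 1.28-fold lower, and RPP38 was 1.31-fold higher. Of 41 tRNA modification genes 32 were lower and 8 higher, against 27 lower and 14 higher with the trend removed, with a median of -0.11. The Elongator subunit gene ELP4 was 1.43-fold lower, and OSGEP and TP53RK of the KEOPS complex 1.33-fold and 1.30-fold lower. LCMT2, which acts in wybutosine synthesis, was 1.55-fold higher (7.44 in SP and 6.81 in NSP, of which only the SP value reached the floor). No gene of either list was 1.5-fold lower in SP, where only 1.43% of genes at or above the floor were. Of the mitochondrial elongation factors, TSFM was 1.40-fold lower in SP (8.33 in SP and 8.82 in NSP), while its partner TUFM differed by 0.03 and GFM1 by -0.12. EEF1A2, the only elongation factor 1 gene measured at or above the floor, differed by 0.02.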

How the data were processed

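The table holds log2 signals that the authors deposited for SP and NSP, made with RMA and Partek per the submitters' processing notes. Versions and filters were not given in the sources used here. RMA in general equalises the distributions of arrays and compresses dim differences. With 2 arrays, their number limits the precision. Of 22011 probe sets, 14432 had 1 gene symbol, 2408 several and 5171 none. Symbols were updated by Entrez identifier in RefSeq (GRCh38.p14), which matched 14404. A gene with several probe sets has their mean. The array's genome build is not given in the sources used here, so coordinates are only those of RefSeq promoter windows.

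No test was run, because each population has 1 sample. Counts past 1.5-fold, and past a lower threshold of 0.32 (log2), are set beside the same counts for the 7549 genes that reached the floor. All members were named. In other lists, FARSA, FARSB, ATF4 and ASNS and up to 4 members with the largest differences were named. Markers under the floor were named after their values were seen. The members and lists were chosen with earlier results of these data known. The trend on signal level was a lowess fit (span 0.3) over all genes. The counting and trend steps were run on simulated data whose noise was smaller than the SD across the 7549 genes. That run checks the code and says nothing about the precision of these arrays. Python 3.11.15, numpy 2.4.6, pandas 2.3.3, statsmodels 0.14.6 and matplotlib 3.10.9 were used.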

Additional observations from a re-analysis of the deposited data

How the results depend on the processing

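No paired analysis was possible because each population has 1 array. The alternatives were both values at or above the floor, no floor, centring of each array, removal of the trend on signal level, quantile normalisation, the brightest probe set, a lower threshold (0.32 on the log2 scale), a 2-fold threshold and the mean over members; the addition of probe sets of several genes was chosen after seeing the data. At the lower threshold, 1 mitochondrial enzyme was lower in SP, against 0 at 1.5-fold. The other counts past a fold stayed at 0 under every alternative run. Some alternatives could not change them. All 30 members have 1 probe set and reach the floor on both arrays, so the floor and brightest probe set settings leave every value as it was. A 2-fold threshold cannot raise a count that is 0 at 1.5-fold. The cytosolic median ranged from -0.06 to 0.03 and the mitochondrial one from -0.06 to 0.02, the upper ends with the trend removed. The value of AIMP1 ranged from -0.18 to -0.10. Of the 30 members, 14 changed sign under at least 1 rescaling, and no member moved by more than 0.086 under centring, trend removal, quantile normalisation or the brightest probe set. With probe sets of several genes added, YARS1 moved by -0.11. The median of genes at or above the floor moved by 0.06 with the trend removed and by 0.03 under quantile normalisation. Detection above background could not be computed, because the table holds no probe intensities.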

Other observations

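The median difference of genes at or above the floor varied between chromosomes, which was examined after the members' values were seen. Over the 22 autosomes it ran from -0.19 to 0.07. Chromosome 5 had the highest median (0.07 over 320 genes, 62.5% of them higher in SP), and 4 of its 5 synthetase genes (RARS1, LARS1, TARS1 and HARS2, but not HARS1) were higher in SP. These include 3 of the 4 cytosolic enzymes that were higher in SP, the other being EPRS1 on chromosome 1. Chromosome 12, which holds MARS1, had a median of -0.13, with 29.1% of 412 genes higher in SP. Chromosome 19, which holds SARS2, had the lowest median (-0.19 over 567 genes, 22.0% of them higher in SP), and the 3 probe sets that name SARS2 together with another gene were lower in SP. With the trend on signal level removed, chromosome 5 still had the highest median (0.13) and chromosome 19 the lowest (-0.12).

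Taken relative to the median of its own chromosome, RARS1 had a difference of 0.13, MARS1 one of -0.08 and HARS1 one of -0.12. The SD across the 17 cytosolic enzymes was then 0.059, against 0.085 for the differences as deposited. For the 12 mitochondrial enzymes it was 0.164, against 0.175, and CARS2 remained the lowest at -0.30. The part of the chromosome in these differences was not tested.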
